A study of Mus musculus with 2 samples.

Results

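The regions described here are the Ebf1 peaks around 7 genes of insulin and Akt signalling in mouse adipocytes: Insr, Irs1, Irs2, Pik3r1, Akt1, Akt2 and Slc2a4. They were chosen by position alone, as the peaks whose centre lies in 1 fixed mm9 interval per gene. The rule found 53 of the 34534 listed peaks, with 14 at Insr, 6 at Irs1, 12 at Irs2, 5 at Pik3r1, 5 at Akt1, 3 at Akt2 and 8 at Slc2a4. Scores played no part in the choice of peaks within the intervals, but the genes were chosen with earlier results of these data known.

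The cells were 3T3-L1, a mouse fibroblast line that becomes fat-storing when treated with a hormone mixture. Per the labels' protocols they were fixed with 1% formaldehyde 10 days after that mixture (MDI) was given, and chromatin bound by Ebf1 was precipitated with a commercial antibody and sequenced. Beside the 1 Ebf1 library, the labels list 1 antibody-free library of whole cell extract. The extract is not analysed here, and no genotype, knockdown or other treatment is compared. The study's question is which regions Ebf1, a transcription factor of B cell and fat cell development, occupies in mature fat cells. With 1 library there are no replicates, so no value below has a biological error and none was tested. The intervals printed cover counting error only, and the library's depth is unknown.

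In fat cells, insulin binds its receptor, a tyrosine kinase encoded by Insr. The receptor phosphorylates the docking proteins Irs1 and Irs2, which recruit phosphatidylinositol 3-kinase through its regulatory subunit, the product of Pik3r1. The lipid made by this kinase brings the protein kinases Akt1 and Akt2 to the membrane. Akt2 is the form best known for moving the glucose transporter GLUT4, the product of Slc2a4, to the cell surface.

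Each peak carries 2 whole numbers in the deposited list whose meaning no source used here states. The score is the first of them. Over the whole list it ran from 3 to 597 with a median of 13. A peak is called strong below when its score is 55 or more, the level at which the top 10% of the list begins. The second value, the other number, ran from 0 to 15 with a median of 1. Scores are not treated as read counts here, and ranks, sums and ratios of scores describe this list alone.

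Ebf1 peaks were found in all 7 intervals, mostly at ordinary scores. The 53 peaks had a median score of 14, with quartiles of 9 and 27 and a range of 5 to 165. Of them 29 or 54.7% (exact Clopper-Pearson 95% interval 40.4 to 68.4) were at or above the list's median score, where 50.6% of all peaks lie. The top 25% of the list begins at a score of 26, and 14 of the 53 peaks or 26.4% (15.3 to 40.3) were at or above it, against 25.7% of the list. Strong peaks numbered 5 or 9.43% (3.13 to 20.7), against 10.2% of the list. By score, then, the shares among these peaks lay near the shares over the whole list.

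The 5 strong peaks belonged to 4 genes. Akt2 had 2 of them and Irs1, Irs2 and Pik3r1 had 1 each. Insr, Akt1 and Slc2a4 had none, although Akt1 came within a few units of the threshold. The strong peaks had second values from 3 to 5. This split among the genes holds for the intervals as drawn. Adding 25 kb at each end brings in peaks of score 93 at Irs1 and 139 at Irs2, and none at Akt2. Removing 25 kb drops the Akt2 peak of score 84, which lies 16.2 kb from the upper end. It also leaves Irs2 with a highest score of 31.

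In number, the peaks were denser than in the rest of the list. The 7 intervals cover 1082 kb and held 49.0 peaks per Mb (exact Poisson 95% interval 36.7 to 64.1). The rest of chromosomes 1 to 19 and X held 13.3 per Mb (13.1 to 13.4), measured on each chromosome between its outermost listed peaks. The ratio was 3.69. Strong peaks alone numbered 4.62 per Mb in the intervals and 1.36 per Mb in the rest. Every one of these intervals was drawn around a gene, while the rest includes gene-poor sequence and assembly gaps. How many peaks other genes have in windows of this length was not analysed here, so the ratio describes these 7 intervals and does not set them apart from other genes. Neighbouring peaks also cluster, which makes the Poisson intervals too narrow.

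**Figure D1:**
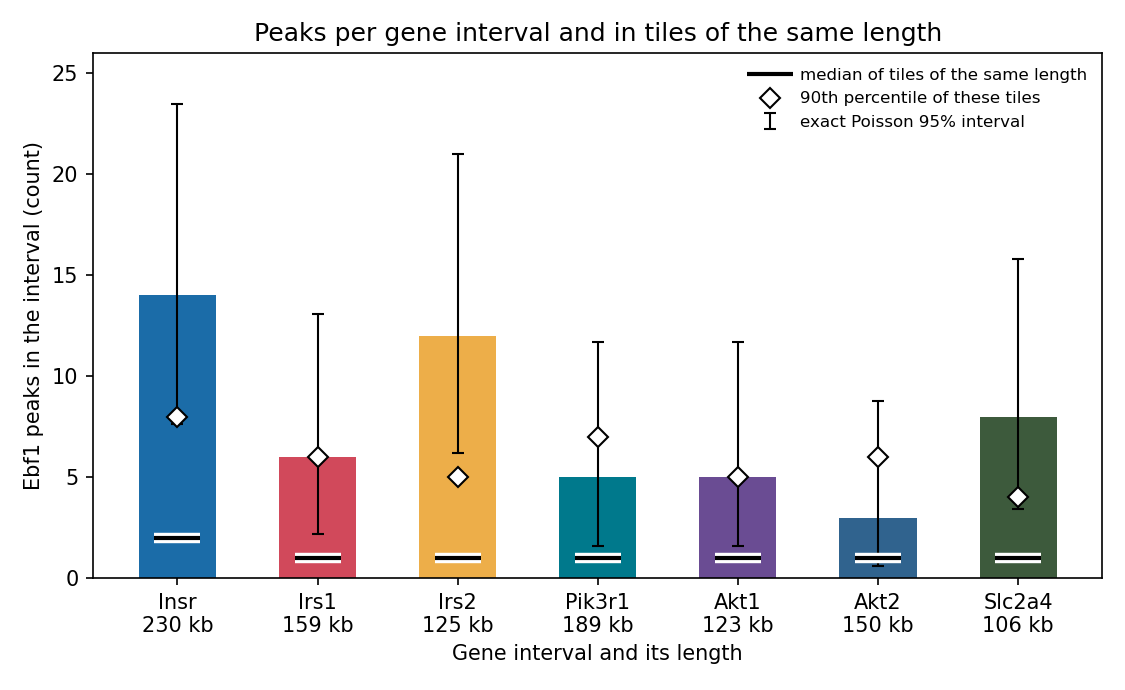
Ebf1 peaks in each gene interval (bars, count) with exact Poisson 95% intervals (error bars, counting error only). Black lines mark the median, and white diamonds the 90th percentile, of non-overlapping tiles of the same length along chromosomes 1 to 19 and X. Insr, Irs2 and Slc2a4 stand above the 90th percentile, Irs1 and Akt1 lie on it, and Pik3r1 and Akt2 lie below it. The tiles pool chromosomes of unlike peak density and include gene-poor sequence. From 30.8% (length of Insr) to 48.9% (length of Slc2a4) of them held no peak.

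Irs2 had the highest density, at 9.60 peaks per 100 kb (4.96 to 16.8). Slc2a4 followed with 7.55 (3.26 to 14.9) and Insr with 6.09 (3.33 to 10.2). Akt1 had 4.07 (1.32 to 9.49) and Irs1 3.77 (1.38 to 8.21). The lowest densities were those of Pik3r1, 2.65 (0.859 to 6.17), and Akt2, 2.00 (0.412 to 5.84). The chromosomes also differed, measured between their outermost listed peaks. Chromosome 8, with Insr and Irs2, held 1.93 peaks per 100 kb, and chromosome 11, with Slc2a4, held 1.68. Chromosomes 1, 12, 13 and 7, with Irs1, Akt1, Pik3r1 and Akt2, held 0.991, 1.10, 1.04 and 1.03. The part of the chromosome in the order of the genes was not tested. The Poisson intervals of the genes overlapped in all 21 pairs. Overlap alone does not show that densities agree within counting error, and no pair was tested.

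The order by strength was another one. The strongest peak scored 165 at Akt2, 63 at Pik3r1, 58 at Irs2, 56 at Irs1, 52 at Akt1, 42 at Slc2a4 and 28 at Insr. Akt2, with the fewest peaks, had the strongest of all 7, and Insr, with the most, had the weakest maximum. The gap between 4 of the genes was small, since Pik3r1, Irs2, Irs1 and Akt1 all lay between 52 and 63. This order holds for the intervals as drawn. With 25 kb added at each end the strongest peak was 139 at Irs2 and 93 at Irs1, with 63 at Pik3r1 and 52 at Akt1. With 25 kb removed it was 31 at Irs2 and 10 at Akt1, with 56 at Irs1 and 63 at Pik3r1. Akt2 kept the highest value under both. The summed score per 100 kb was 193 at Akt2, 182 at both Irs2 and Slc2a4, 85.4 at Akt1, 78.3 at Insr, 70.4 at Irs1 and 65.6 at Pik3r1. Thus, in the intervals as drawn, 3 peaks at Akt2 carried about as much score per length as 12 peaks at Irs2. Sums were not computed with moved ends. With 25 kb added at each end Irs2 gained peaks of scores 51, 18, 34, 139, 42 and 11 and had 18 in all. Akt2 gained none and still had 3. The near-equality of Akt2 and Irs2 therefore does not carry over to the longer intervals.

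**Figure D2:**
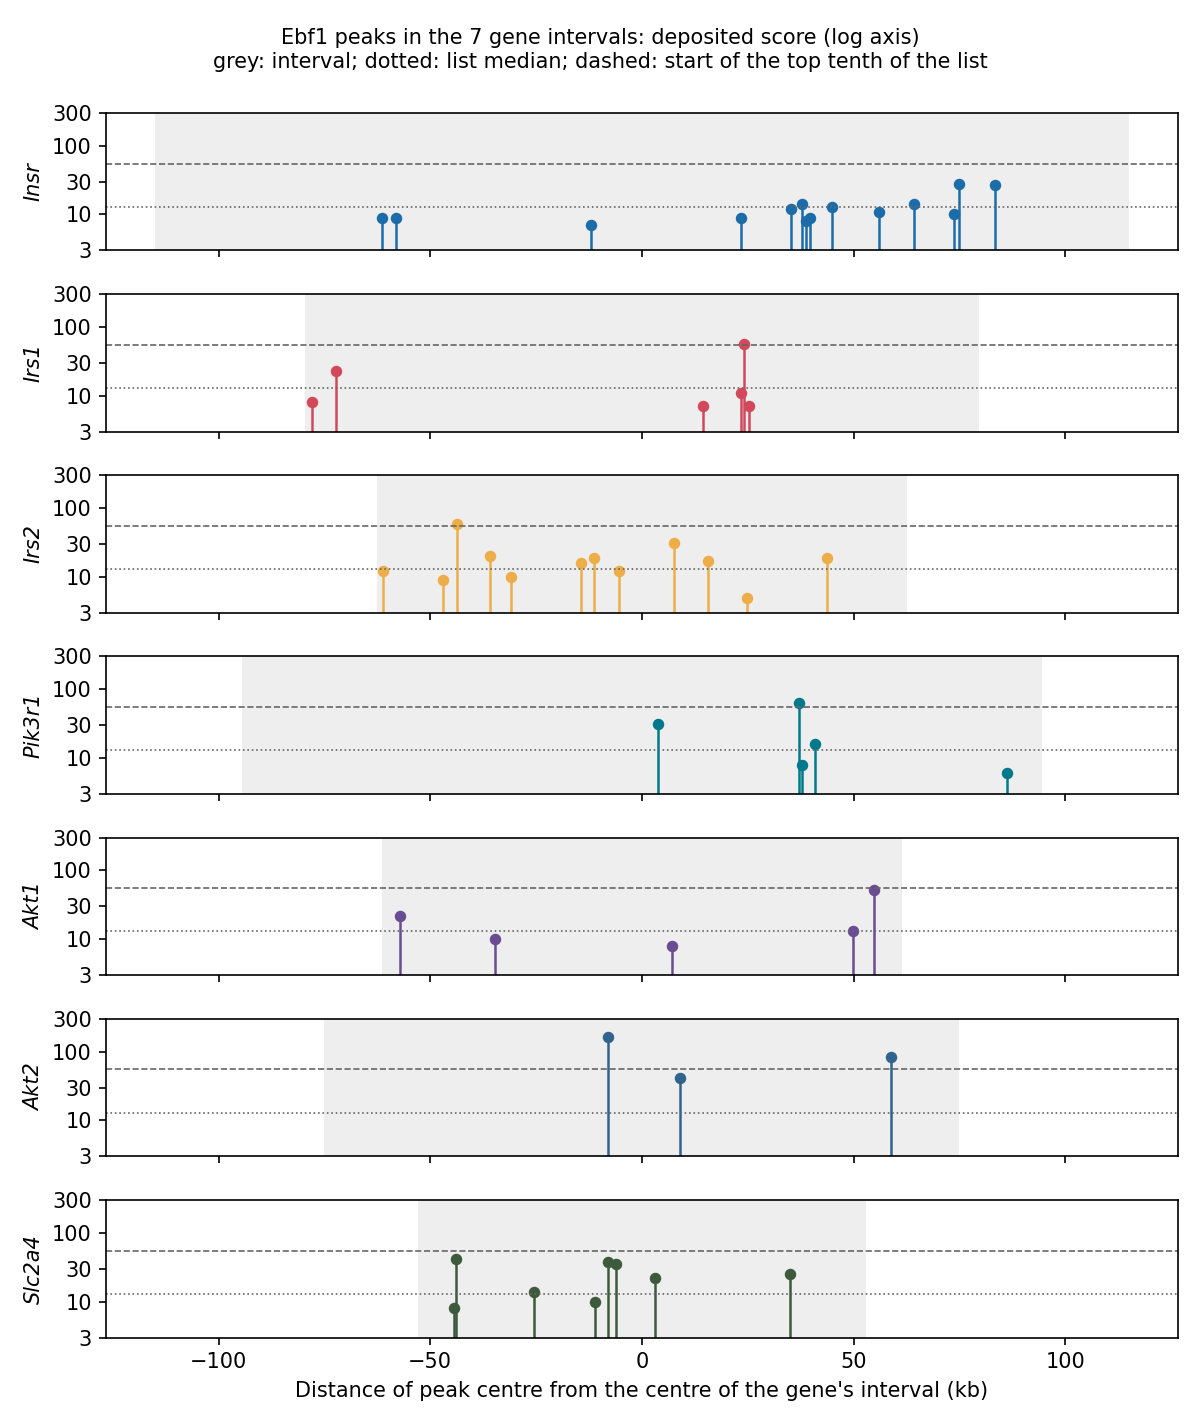
Position and score of each of the 53 peaks. The horizontal axis is the distance of the peak centre from the centre of the gene's interval in kb, in order of mm9 coordinate. The vertical axis is the deposited score on a log scale, with the interval shaded grey, the list's median of 13 dotted and the score of 55 dashed. The Insr peaks crowd to the right of the centre at scores up to 28, and Akt2 shows 3 tall and widely spaced peaks.

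The receptor gene Insr, in chr8:3100001-3330000, had many weak peaks. Its 14 scores ran from 7 to 28 with a median of 10.5, and 9 of the 14 lay below the list's median. Tiles of the same length, 230 kb, held a median of 2 peaks and 8 at their 90th percentile. The peaks were unevenly placed. When centres within 12.5 kb of the next were joined, 11 of the 14 formed a single cluster of 60.4 kb, chr8:3238351-3298700, with scores of 8 to 28. It held the strongest peak, chr8:3289901-3290175, which scored 28 at a width of 275 bp. All listed peaks of that width had a median score of 11, and 0.212% of them scored higher. The next, chr8:3298301-3298700, scored 27. Within the cluster lay the closest pair of the interval, chr8:3253626-3253850 and chr8:3254526-3254800, with scores of 8 and 9 and centres 925 bp apart. Toward the lower coordinates a pair of peaks scoring 9 each lay at chr8:3153451-3156925, and 1 peak of score 7 at chr8:3202826-3203050 stood alone. No Insr peak was strong, and the strongest peak was at least as high in 33.7% of tiles of this length.

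Irs1 encodes the docking protein that gave the substrate family its name, and its interval was chr1:82179001-82338000. Its 6 peaks fell into 2 groups separated by 86.6 kb between centres, the longest such gap in any of the 7 intervals. The group near the lower end of the interval had scores of 8 and 23. The other, chr1:82272776-82283875, held 4 peaks over 11.1 kb with scores of 7, 11, 56 and 7. The strong peak was chr1:82282251-82282925, which ranked 3326 in the list with a score of 56 and a second value of 4. It was 675 bp wide, and its score was 0.647 of the median for that width, 86.5, so it was a broad peak of modest score. The peak beside it, chr1:82281801-82282050, scored 11, with 200 bp between their edges. This was the closest pair at Irs1. Beyond the upper end of the interval no peak was listed for 398 kb, the longest such distance among the 7 genes. Below the lower end, 3 peaks of scores 93, 6 and 13 lay within 25 kb and are not counted. The strongest of them, chr1:82155726-82156325, exceeded every Irs1 peak inside the interval and lay 23.0 kb from its edge.

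Irs2, the docking protein that shares this role with Irs1, had many peaks without long gaps. In chr8:10934001-11059000 its 12 peaks had scores from 5 to 58 with a median of 16.5, and 7 of them were at or above the list's median. The longest gap between centres was 19.1 kb, the shortest such maximum among the 7 genes. Tiles of 125 kb held a median of 1 peak, and 5 at their 90th percentile. The strong peak, chr8:10952576-10953050, scored 58 at a width of 475 bp, against a median of 35 for that width, with a second value of 4. The next, chr8:11003751-11004150, scored 31. The closest pair, chr8:10981951-10982200 and chr8:10984926-10985275, scored 16 and 19 with centres 3025 bp apart. At Irs2 the edge of the interval mattered. A peak of score 139, chr8:10927026-10927800, lay 6.59 kb outside the lower end and is not counted, with peaks of scores 34 and 42 beside it. Its second value of 13 was above that of any of the 53 peaks, the highest of which was 5.

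Pik3r1 encodes the regulatory subunit that couples the substrates to the lipid kinase. Its interval, chr13:102400001-102589000, was empty for 98.4 kb from the lower end to the first centre. The 5 peaks after that scored 31, 63, 8, 16 and 6 in order of coordinate. The strong one, chr13:102531451-102531950, ranked 2803 with a score of 63 and a second value of 3. At its width of 500 bp the list's median was 40. A weak peak of score 8, chr13:102532101-102532300, lay beside it with 150 bp between the edges and 500 bp between the centres, the closest spacing in the 7 intervals. These and a peak of score 16, chr13:102535201-102535550, formed a cluster of 4.10 kb. The first peak, chr13:102498176-102498575, scored 31 and stood alone.

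The kinase genes Akt1 and Akt2 had strongest peaks of 52 and 165, a difference with no replicate check. Akt1, the widely expressed form, had 5 peaks in chr12:113841001-113964000, with scores of 22, 10, 8, 13 and 52. The peak of score 52, chr12:113957101-113957650, ranked 3724, just below the strong threshold, and was the strongest of the interval. At 550 bp its width had a median of 54 in the list, and its second value was 1. It lay 54.9 kb from the interval's centre and formed the closest pair with chr12:113952276-113952575, which scored 13, at 4950 bp. In the middle of the interval the only peak was chr12:113909376-113909600, with a score of 8. The peak nearest the lower end, chr12:113845176-113845575, scored 22.

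Akt2, the form most tied to glucose uptake in fat and muscle, had 3 peaks in chr7:28326001-28476000, all in the top 25% of the list. The first, chr7:28392476-28393275, scored 165 at a width of 800 bp with a second value of 5. It ranked 303, with 0.875% of all listed peaks above it, and its score was 12.7 times the list's median. The strongest peak reached that score in 1.67% of tiles of 150 kb. These tiles were not drawn around genes, and 40.5% of them held no peak. At its own width the list's median was 117, so the ratio to peaks of the same width was 1.41. The next, chr7:28409576-28410300, scored 41 at 725 bp, where the list's median was 108 and 94.9% of peaks were higher. The last, chr7:28459501-28460050, scored 84 at 550 bp, with 13.1% of peaks of that width above it and a second value of 4. The closest centres were 17062 bp apart, so each of the 3 peaks stood alone under the joining distance. No Akt2 peak fell below the list's median, the only one of the 7 intervals for which this held.

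Slc2a4, which encodes GLUT4, had 8 peaks of intermediate score in chr11:69706001-69812000, the shortest interval at 106 kb. Their scores in order of coordinate were 8, 42, 14, 10, 37, 35, 22 and 25, with a median of 23.5, and 6 of the 8 were at or above the list's median. No single peak dominated, as the strongest held 21.8% of the summed score. This was not particular to Slc2a4, since the share was 15.6% at Insr with 14 peaks and 25.4% at Irs2 with 12. At Akt1, Irs1, Pik3r1 and Akt2, with 3 to 6 peaks each, it ran from 49.5% at Akt1 to 56.9% at Akt2. The lowest possible share is higher where peaks are fewer, so these shares depend in part on peak number. The strongest, chr11:69714851-69715425, scored 42 with a second value of 5 and lay 43.9 kb to the lower side of the interval's centre. A peak of score 8, chr11:69714501-69714700, was its neighbour with 150 bp between the edges. Closer to the centre, 4 peaks at chr11:69747726-69762325 formed a cluster of 14.6 kb with scores of 10, 37, 35 and 22. The peak at chr11:69793776-69794050 scored 25 at a width of 275 bp, with 0.382% of peaks of that width above it. Just outside the upper end, chr11:69812751-69813250 scored 27 at 1.00 kb from the edge.

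Close spacing recurred across the intervals. Of the 53 peaks, 41 or 77.4% (63.8 to 87.7) had another listed centre within 12.5 kb, against 56.2% of the list. A neighbour within 1 kb was found for 9 or 17.0% (8.07 to 29.8), against 11.9% of the list. Denser intervals bring neighbours nearer by construction, so these shares move with the density above. The pairs within 1 kb lay at Insr, Irs1, Pik3r1 and Slc2a4. At Irs1, Pik3r1 and Slc2a4 the pair joined the strongest peak of the interval to a weak one, with scores of 56 and 11, 63 and 8, and 42 and 8. At Insr both members of the closest pair were weak. The edges of the pairs at Irs1, Pik3r1 and Slc2a4 were 200, 150 and 150 bp apart. These gaps are shorter than the library's gel size range of 275 to 700 bp. Whether such a pair holds separate bound regions was not tested.

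**Figure D3:**
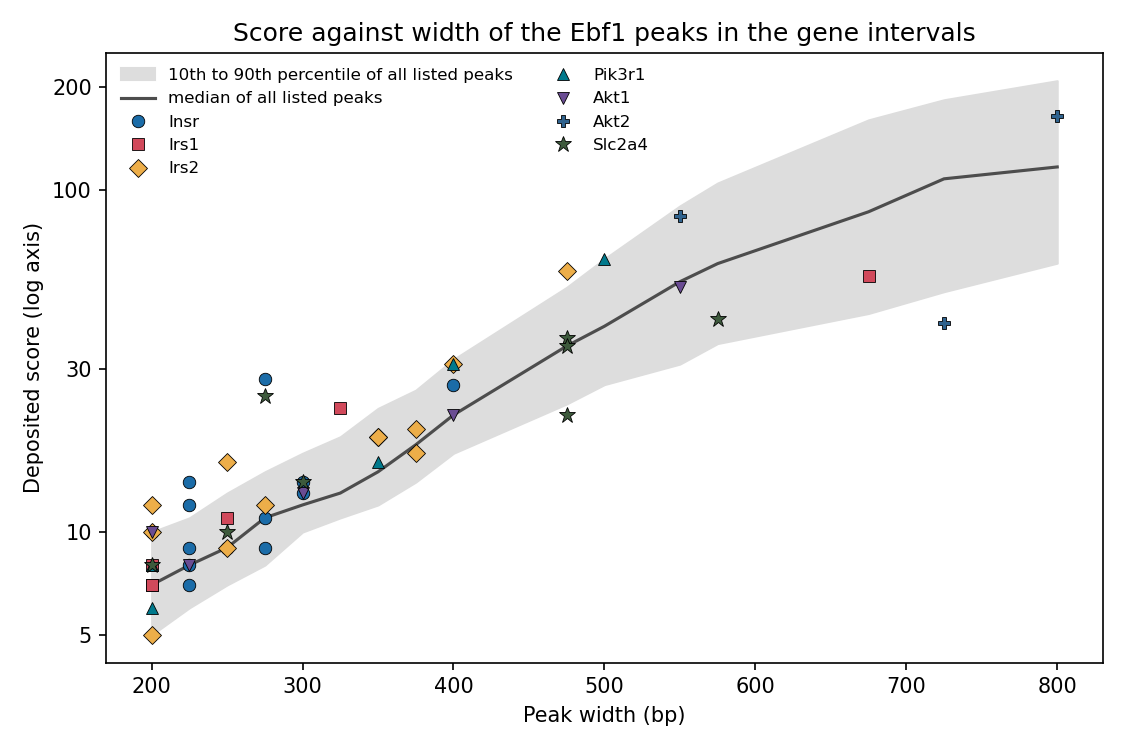
Score of each of the 53 peaks (vertical axis, log scale) against its width in bp (horizontal axis), by gene, with identical points overlapping. The grey band runs from the 10th to the 90th percentile of all listed peaks at the same widths, and the line is their median. Within the band lie 43 of the 53 points. Below it are the Akt2 peak of score 41 and the Slc2a4 peak of score 22, and above it are 8 peaks, among them the Insr peak of score 28 and the Slc2a4 peak of score 25.

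Scores in this list go up with width, so each peak was also set beside all listed peaks of its own width. Of the 53, 33 or 62.3% (47.9 to 75.2) scored above that median, against 43.8% of the list. Another 10 or 18.9% (9.44 to 32.0) equalled it, against 13.6%, and 10 or 18.9% (9.44 to 32.0) were below, against 42.6%. Peaks of 1 interval share their source, so these intervals are too narrow, and the difference was not tested. The widths themselves ran from 200 to 800 bp with a median of 275 bp, against 300 bp for the list. The narrowest width, 200 bp, was taken by 11 peaks or 20.8%, against 20.3% of the list. The second value was 0 at 9 peaks or 17.0% (8.07 to 29.8), against 29.8% of the list, and 4 or more at 8 peaks or 15.1%, against 10.2%.

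Whether a peak lies in a promoter, exon or intron is not given, as neither annotation nor sequence of mm9 was used here. The chromosome of each interval matched the gene's chromosome in the RefSeq table of GRCm38, a later build whose coordinates cannot be set beside these peaks. By gene order in that table, windows as long as the intervals and centred on the genes hold no other protein-coding gene at Insr, Irs2 and Pik3r1. The window of Irs1 reaches 1, Rhbdd1. Those of Akt1 and Akt2 hold 6 others each, among them Inf2, Siva1 and Cep170b at Akt1 and Pld3, Ttc9b and Map3k10 at Akt2. That of Slc2a4 holds 11 others, among them Eif5a, Gps2, Ybx2 and Cldn7. A peak in the last 3 intervals, or in that of Irs1, may therefore lie nearer to another gene than to the one that names it. Whether the mm9 intervals are centred on their genes, as these windows are, could not be checked here. Near the edge of any interval, a peak may also lie nearer to a gene outside.

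Ebf proteins bind a short palindrome with the core CCCNNGGG, usually with T before it and A after it. RefSeq promoters of GRCm38.p6, from 250 bases before to 50 after each start, were searched for these letters. The pattern reads the same on both strands, and whether a peak lies at any of these promoters is not known. The table held 10 promoters for 5 of the 7 genes, Irs1, Irs2, Pik3r1, Akt1 and Akt2. None had the core with both flanking bases, which 0.904% of all 32851 promoters have. The core was in 1 of the 10, a promoter of Akt1, against 13.7% of all promoters. It is shown because it is the only match at these genes, on the minus strand at chr12:112674374-112674403 of GRCm38.p6, with the core in capitals. The match begins 116 bases before that start.
Akt1: gctcggggccaCCCGAGGGcggcgcctgcg

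Of 40 further genes of the pathway, chosen by their known roles, 36 had at least 1 of 46 promoters in the table. In 4 of the 36 a promoter held the core with both flanking bases, against 1.12% of protein-coding genes in the table. In 11 of the 36, these 4 included, a promoter held the core with or without the flanking bases, against 17.6%. The promoters of this list had a median G and C content of 63.7%, against 56.3% over promoters of protein-coding genes, and the part of base composition in the matches was not tested. The 4 genes were Pik3r2, another regulatory subunit of the lipid kinase, and Foxo1, a transcription factor that Akt phosphorylates. The others were Tbc1d1, a GTPase-activating protein acting on GLUT4 vesicles, and Grb10, an adaptor that restrains the insulin receptor. Their matches are shown with the motif in capitals, 5′ to 3′ on the gene's strand, in GRCm38.p6 coordinates. The stretches are chr8:70776770-70776899 (minus) for Pik3r2, chr3:52268185-52268314 (plus) for Foxo1, chr5:64160069-64160198 (plus) for Tbc1d1 and chr11:12028180-12028209 (minus) for Grb10.
Pik3r2: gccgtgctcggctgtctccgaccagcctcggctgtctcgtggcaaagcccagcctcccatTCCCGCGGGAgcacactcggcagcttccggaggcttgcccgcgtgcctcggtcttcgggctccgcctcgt
Foxo1: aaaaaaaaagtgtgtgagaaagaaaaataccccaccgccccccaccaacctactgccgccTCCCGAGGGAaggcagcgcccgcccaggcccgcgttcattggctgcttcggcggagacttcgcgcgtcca
Tbc1d1: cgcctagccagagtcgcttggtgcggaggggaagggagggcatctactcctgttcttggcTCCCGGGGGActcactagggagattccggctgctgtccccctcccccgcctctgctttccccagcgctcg
Grb10: aagcctctgcTCCCCGGGGAgcatctactg
The motif starts 127, 92, 131 and 228 bases before the start in Pik3r2, Foxo1, Tbc1d1 and Grb10. Ebf1 peaks near these 4 genes were not analysed here, since no mm9 interval was given for them.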

How the data were processed

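Ebf1-bound regions were read from the peak list of 1 Ebf1 ChIP-seq library. Positions are on mm9 and SAMtools was among the tools, per the submitters' processing notes. For the aligner, the peak caller with its threshold and the use of the whole cell extract, nothing is stated (not given in the sources used here). No header comes with the deposited list, and its 2 whole-number columns were treated as each peak's score and second value as the authors deposited them. Positions were taken as 1-based, start and end both belonging to the peak.

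Peaks were assigned to a gene by their centre. Counts have exact Poisson 95% intervals and shares exact Clopper-Pearson 95% intervals. Same-length tiles ran from the first listed peak of each chromosome. No test was made, as there is 1 library. Within each interval the strongest peak, every strong peak and the closest pair were named. Further peaks were named after their values were seen. The genes and lists were chosen with earlier results of these data known. Interval counting, joining and the motif search were tested on simulated data. Alternatives were score and second-value thresholds, any-base overlap, interval ends moved by 25 kb, joining centres within 1 kb, other definitions of the rest and of strong, and 2 motif settings. The work used Python 3.11.15, numpy 2.4.6, scipy 1.17.1 and matplotlib 3.10.9.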

Additional observations from a re-analysis of the deposited data

How the results depend on the processing

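The density in the 7 intervals was 3.40 to 4.32 times that of the rest of the list under all 9 alternatives, against 3.69 as reported, which is within counting error. By construction, 29 of the 53 peaks were left at or above the list's median score and 5 among the strong. The share counted as strong was 26.4% when strong meant the top 25% of the list. It was 17.2% among the peaks at or above the list's median score, where a rise is built into the setting. Under the other alternatives it ran from 7.69% to 11.4%, within counting error of the reported 9.43%. Dropping the flanking bases gave 1 gene with the EBF motif in a promoter, in place of 0, of the 5 genes with a promoter in the table. For single genes, moving the interval ends changed the highest score by over 1.5 times at 3 of the 7. Lengthening by 25 kb raised it from 58 to 139 at Irs2 and from 56 to 93 at Irs1. Shortening lowered it from 52 to 10 at Akt1 and from 58 to 31 at Irs2. Shortening also left 2 of 5 peaks at Akt1 and 5 of 8 at Slc2a4, and dropping peaks with a second value of 0 left 3 of 5 at Pik3r1. No paired analysis was possible because only 1 library had values here. As depth is unknown, how many weak peaks are chance calls was not tested.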
